A study of Homo sapiens with 32 samples.

Results

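The 10 genes followed across the series were MYOCD, the gene of the transcriptional coactivator myocardin, SRF, the gene of the DNA-binding factor it works with, and 8 genes of the smooth-muscle contractile apparatus (MYLK, MYL9, ACTA2, TAGLN, CNN1, CALD1, TPM1 and TPM2). They are 10 of the 60107 genes in the deposited count table and were found by their symbols. The set was chosen by measured values, namely the near loss of MYOCD in U2OS cells after CPT and the changes of contractile genes beside it. Values of the 10 genes in that comparison are therefore a description and carry no test. RNA was measured with QuantSeq, which reads the 3′ end of each transcript, in HEK293T cells (an embryonic kidney line) and U2OS cells (an osteosarcoma line), in 32 libraries of which each comparison below takes sets of 4. CPT is camptothecin, a poison that traps topoisomerase 1 on DNA, DMSO is its solvent, and ATM is a checkpoint kinase of the DNA damage response.

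The U2OS CPT set (libraries 26 to 29) was compared with U2OS cells given DMSO (libraries 30 to 33). The labels give 24 h of drug or DMSO and 48 h of recovery for HEK293T, and 72 h of untreated growth for U2OS, which does not match the labels CPT and DMSO of libraries 26 to 33. The study's methods give the former schedule for drug treatments in general. Libraries 18 to 21 carry the label HEK293T ATM KO, although the study's methods describe a chemical ATM inhibitor for this cell line, and they were compared with the HEK293T DMSO libraries 22 to 25. Libraries 10, 12, 14 and 16 are labelled U2OS ATM KO. They were set against libraries 11, 13 and 15 (labelled U2OS WT) and library 17 (labelled HEK293T DMSO). Libraries 2, 4, 6 and 8 are labelled HEK293T CPT and were set against library 1 (labelled U2OS WT) and libraries 3, 5 and 7 (labelled HEK293T DMSO). The U2OS ATM KO cells were made by genome editing and grown from picked clones, so that the knockout and the clone cannot be told apart. The cell lines were also compared with each other under DMSO, which shares its libraries with the first comparison and with that of libraries 18 to 21.

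SRF binds a short DNA element, the CArG box, in the promoters of muscle and cytoskeletal genes. Myocardin has no strong DNA binding of its own and joins SRF on the CArG boxes of smooth-muscle and cardiac genes, while the related MRTF proteins join SRF when actin polymerises, and ternary complex factors bring SRF to growth-responsive genes such as FOS and EGR1. The contractile genes encode the kinase that phosphorylates the myosin light chain (MYLK), that light chain (MYL9), the smooth-muscle actin (ACTA2), actin-binding proteins (TAGLN, CNN1, CALD1) and tropomyosins (TPM1, TPM2), several of which are also made outside muscle in cells with stress fibres.

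Promoter windows from RefSeq (GRCh38.p14, 250 bases before to 50 after a start site) were found for 7 of the 10 genes, with 13 windows in all. The CArG box was searched on both strands as CC, then 6 bases that are each A or T, then GG, which reads the same way on either strand. It occurred in 454 (1.29%) of the windows searched, and in 2 of the 13 windows here. Windows of 1 chromosome that holds none of the 10 genes were left out of the search. With 1 of the 6 middle bases allowed to be G or C, the share was 8.13% of the windows searched, and 4 of the 13. The 4 windows are shown from 130 bases before the start site up to it, 5′ to 3′ on the strand of the gene, with the boxes in capitals, because they hold the element through which SRF and myocardin are known to act.
SRF, chr6:43171139-43171268, plus strand, 2 exact boxes that start 30 and 10 bases before the start site: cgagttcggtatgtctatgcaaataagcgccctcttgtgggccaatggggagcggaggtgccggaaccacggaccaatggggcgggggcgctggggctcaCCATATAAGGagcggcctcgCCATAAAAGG
MYLK, chr3:123620549-123620678, minus strand, 1 exact box that starts 94 bases before an internal start site: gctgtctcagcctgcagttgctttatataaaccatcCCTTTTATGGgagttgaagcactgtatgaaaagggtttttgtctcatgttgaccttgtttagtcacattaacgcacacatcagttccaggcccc
ACTA2, chr10:88952774-88952903, minus strand, 2 boxes with 1 middle base off, at 121 and 71 bases before the start site: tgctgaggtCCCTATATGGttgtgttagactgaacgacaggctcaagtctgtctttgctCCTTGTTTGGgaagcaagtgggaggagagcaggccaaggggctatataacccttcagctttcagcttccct
CALD1, chr7:134711369-134711498, plus strand, 1 box with 1 middle base off, at 26 bases before the start site: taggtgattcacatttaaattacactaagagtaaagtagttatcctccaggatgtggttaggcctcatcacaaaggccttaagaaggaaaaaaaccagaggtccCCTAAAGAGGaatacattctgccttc

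The SRF start lies just upstream of the gene's annotated 5′ end (GENCODE 29, GRCh38), and the CALD1 start lies upstream of the whole annotated gene. The MYLK start lies 263783 bases downstream of the gene's annotated 5′ end, and the ACTA2 start lies 38566 bases inside its gene. A match describes the letters of the window and is not a measured binding site. Each of the 10 genes lies on a chromosome of its own: MYOCD at chr17:12665890-12768949 (plus strand), SRF at chr6:43171299-43181507 (plus), MYLK at chr3:123610049-123884331 (minus), MYL9 at chr20:36541484-36551447 (plus), ACTA2 at chr10:88935074-88991339 (minus), TAGLN at chr11:117199321-117204782 (plus), CNN1 at chr19:11538717-11550323 (plus), CALD1 at chr7:134744252-134970728 (plus), TPM1 at chr15:63042632-63071915 (plus) and TPM2 at chr9:35681992-35690121 (minus).

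The libraries held 1232674 to 6362433 gene counts each. CPM, counts per 1000000 gene counts, is the unit of level used here, and 3 counts, the floor for detection, stand for 0.472 to 2.43 CPM depending on the library. The profiles of 14 libraries, 2 to 8 and 10 to 16, were nearer to the DMSO libraries of the other cell line than to those of the line on their label. Libraries 1 to 8 resembled U2OS DMSO (Pearson r across genes at least 0.941 on the log2 scale, against at most 0.753 for HEK293T DMSO) and libraries 10 to 17 resembled HEK293T DMSO (at least 0.936, against at most 0.749 for U2OS DMSO). These libraries are therefore named by number and label, and no direction is given for a treatment or a knockout from them. ATM RNA checks no label here, since a 3′ read can lie outside the edited part of the gene. It ran from 21.2 to 87.7 CPM over the 32 libraries and was called in none of the 5 comparisons. Library 8 stood apart within its set, with the highest level of MYOCD, MYLK, MYL9, ACTA2, TAGLN, CNN1, CALD1, TPM1 and TPM2, so differences of libraries 2, 4, 6 and 8 are also given without it. The study describes independent repeats of each experiment, and p-values measure the spread between these libraries. In RNA from whole cultures, fewer cells that express a gene and less of its RNA per cell cannot be told apart.

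A gene was called higher or lower where the edgeR quasi-likelihood test gave a Benjamini-Hochberg adjusted p under 0.05 and the log2 fold change exceeded 1 in size. In U2OS cells, all 10 genes were tested: 5 were past both thresholds upwards after CPT (MYLK, ACTA2, TAGLN, CNN1 and TPM2), where 7.97% of all genes tested were, and 1 downwards (MYOCD), where 5.50% were. These shares are given beside a set that the same values chose, and nothing is read from them. In HEK293T libraries 18 to 21, none of the 9 genes tested was called, against 0% of the 18413 genes tested in either direction. There, 1019 genes, MYLK among them, had an unadjusted p under 0.05, and the likelihood ratio test called 2 genes and DESeq2 called 0. In libraries 10, 12, 14 and 16, 2 of 9 (MYOCD and ACTA2) were called higher than in libraries 11, 13, 15 and 17, against a background of 9.52%, and none was lower, against 4.45%. MYOCD passed the filter on low counts there through libraries 10, 14 and 16. Of libraries 11, 13, 15 and 17, only library 15 had over 1 count. The set in which MYOCD is higher thus decided that it was tested, and nothing is read from its call. In libraries 2, 4, 6 and 8, 2 of 10 (MYLK and CNN1) were higher than in libraries 1, 3, 5 and 7, against 2.80%, and 2 (MYOCD and TPM1) were lower, against 2.44%. Between the cell lines under DMSO, 7 of 10 were past both thresholds upwards in U2OS, beside 21.8% of all genes, and ACTA2 downwards, beside 18.1%. The U2OS DMSO libraries are among those that chose the set, so nothing is read from these shares either, and the members' differences between the lines are given with no test. The median log2 fold change of the tested members was 1.05 in U2OS CPT, -0.24 in libraries 18 to 21, 0.18 in libraries 10 to 16, -0.30 in libraries 2 to 8 and 2.06 between the lines, while the median over all genes lay between 0.0026 and 0.041.

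**Figure D1:**
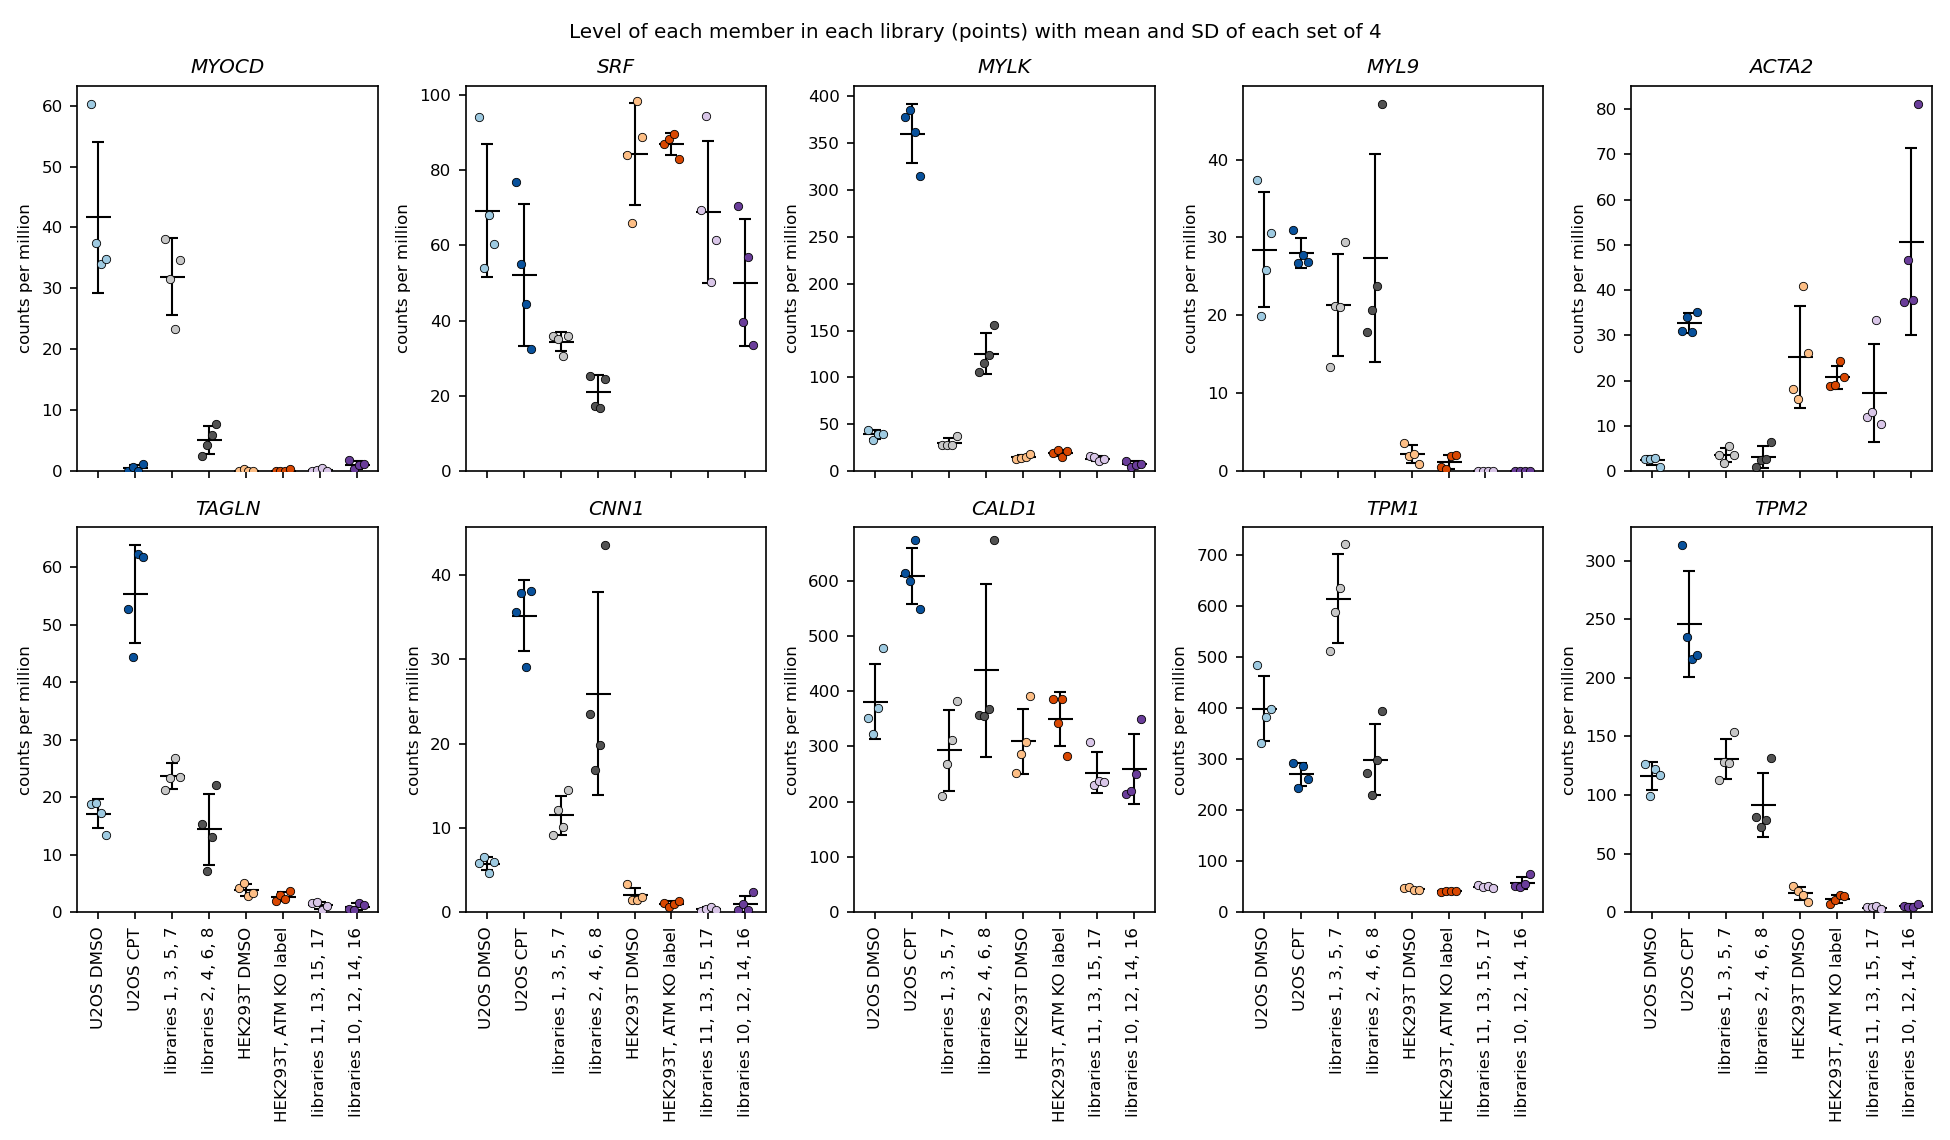
CPM of each of the 10 genes (one panel each, linear axis from 0) in every library, as points, by set of 4 libraries, with the mean (long dash) and the SD (bars). MYOCD is high in U2OS DMSO and in libraries 1, 3, 5 and 7 and at or near 0 in U2OS CPT and in every HEK293T-like set, while MYLK is highest in U2OS CPT.

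MYOCD was close to absent after CPT in U2OS. Its level was 60.2, 37.5, 34.0 and 34.8 CPM in the DMSO libraries 30 to 33, and 0, 0.620, 0 and 1.25 CPM in the CPT libraries 26 to 29. The sets do not overlap, and the CPT values lie at or below the level of 3 counts in all but library 29. Summed over each set this was 6 counts against 565, a level 87.3-fold lower in CPT, with an interval of 39.9 to 239 that covers counting error only (exact, 95%). The fitted log2 fold change was -6.17 ± 0.35 (SE, n = 4 against 4). Library 30 held the highest DMSO value, and the fold change was -7.22 without library 29, which held 4 of the 6 CPT counts.

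The same gene also separated the libraries numbered 1 to 8, which are U2OS-like in profile. It stood at 38.1, 31.6, 23.3 and 34.6 CPM in libraries 1, 3, 5 and 7 and at 2.43, 4.33, 5.90 and 7.73 CPM in libraries 2, 4, 6 and 8. All 4 of the latter were below all 4 of the former. The difference was -2.47 ± 0.23 on the log2 scale (edgeR quasi-likelihood test, adjusted p = 1.81e-12, n = 4 against 4), or 5.02-fold (counting interval 3.97 to 6.40). It was -2.36 without library 1, whose label differs from the other 3, and -2.66 without library 8. Against libraries 3, 5, 7 and 17, which share the label HEK293T DMSO, it was -2.04 with an adjusted p of 0.366. In profile, libraries 3, 5 and 7 are U2OS-like and library 17 is HEK293T-like, so these controls mix both lines, here and below. A call lost against them cannot tell a smaller difference from the spread between the lines.

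In HEK293T DMSO, MYOCD had 1 count in 1 of the 4 libraries, and libraries 18 to 21 likewise held 1 count, in library 21. The gene did not pass the filter on low counts in that comparison. U2OS DMSO exceeded HEK293T DMSO 585-fold by counts, 565 against 1, with a counting interval of 104.6 to 23160, and the fitted log2 fold change was 8.79 ± 0.39. Without library 23, which held that count, HEK293T DMSO was at 0 counts. The fit then gave 10.27, a value over 0 counts that measures no size. Libraries 10, 12, 14 and 16 held 6, 1, 3 and 7 counts (0.309 to 1.84 CPM), and libraries 11, 13, 15 and 17 held 0, 1, 2 and 0 counts (0 to 0.444 CPM). These are among the lowest levels that this depth can resolve. The higher of these sets carried the gene past the filter on low counts, so its call is a description. The ranges overlapped, the ratio was 7.39 with a counting interval of 2.14 to 39.4, and the call (log2 fold change 2.64 ± 0.81, edgeR adjusted p = 0.0141) did not hold when library 10 (adjusted p = 0.0516) or library 11 (0.0504) was left out. It was 2.32 without library 17 (adjusted p = 0.0325) and 3.60 without library 15, and it turned to -3.17 (adjusted p = 0.311) against the 4 libraries labelled U2OS WT. Those controls, here and below, mix both lines too, since library 1 is U2OS-like and libraries 11, 13 and 15 are HEK293T-like.

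SRF, the partner of myocardin, differed by less than 1 on the log2 scale in each comparison. It ran from 54.0 to 94.2 CPM in U2OS DMSO and from 32.4 to 76.8 CPM in U2OS CPT, and these ranges overlapped (log2 fold change -0.22 ± 0.18). The fold change between U2OS DMSO and HEK293T DMSO (66.0 to 98.2 CPM) was -0.07 ± 0.14, with a 95% interval of -0.34 to 0.21. Libraries 2, 4, 6 and 8 held 25.1, 17.3, 16.7 and 24.6 CPM of SRF, all below the 36.0, 35.0, 30.7 and 36.0 CPM of libraries 1, 3, 5 and 7. That difference, -0.78 ± 0.18 (edgeR adjusted p = 0.00151), had a size under 1 and was not called, and it was -0.88 without library 8 (adjusted p = 3.21e-04). In libraries 10, 12, 14 and 16 it was -0.51 ± 0.20 relative to libraries 11, 13, 15 and 17, with overlapping ranges and an adjusted p of 0.0556.

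MYLK, the gene of the myosin light chain kinase, went the opposite way to MYOCD in both comparisons in which MYOCD was lower. It stood at 44.1, 32.7, 39.6 and 40.1 CPM in U2OS DMSO and at 378, 386, 362 and 315 CPM in U2OS CPT. Every CPT library was above every DMSO library, and the log2 fold change was 3.37 ± 0.13. In libraries 1, 3, 5 and 7 it was 28.2, 28.1, 27.9 and 37.6 CPM, and in libraries 2, 4, 6 and 8 it was 106, 115, 124 and 156 CPM, again with no overlap. The log2 fold change was 2.01 ± 0.16 (edgeR adjusted p = 9.21e-15), 2.01 without library 1 and 1.92 without library 8, and 2.28 (adjusted p = 0.0281) against libraries 3, 5, 7 and 17.

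In the HEK293T-like comparisons MYLK was not called. It ran from 12.9 to 18.4 CPM in HEK293T DMSO and from 15.01 to 22.6 CPM in libraries 18 to 21, which overlap (0.44 ± 0.17, unadjusted p = 0.0148, edgeR adjusted p = 0.851). Libraries 10, 12, 14 and 16 (4.01 to 11.3 CPM) lay below libraries 11, 13, 15 and 17 (10.4 to 15.8 CPM) apart from library 10, by -0.87 ± 0.24 (adjusted p = 0.00669), a size under the threshold of 1 that passed it without library 10 (-1.11). U2OS DMSO exceeded HEK293T DMSO by 1.60 ± 0.15. The 3′ end of MYLK lies inside the antisense gene MYLK-AS1, and the strand setting of the counting is not given in the sources used here. MYLK-AS1 had 0.739 CPM on average in U2OS DMSO and 1.01 CPM in U2OS CPT, far below MYLK. The pseudogene MYLKP1 had 0 counts in all 32 libraries. A 3′ read does not show at which start site its transcript began. Transcripts from the internal MYLK start shown above therefore cannot be told from longer ones, and which of them changed was not tested. The same limit holds for the other genes with several transcripts.

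MYL9 encodes the regulatory light chain that this kinase phosphorylates, and it did not follow MYLK. In U2OS it was 37.4, 19.96, 25.8 and 30.5 CPM under DMSO and 30.9, 26.7, 27.7 and 26.8 CPM after CPT. The CPT values lay inside the range of the DMSO values. The log2 fold change was 0.15 ± 0.16, or -0.02 with plain library totals, so its sign rests on the scaling. Between libraries 2, 4, 6 and 8 and libraries 1, 3, 5 and 7 the difference was 0.36 ± 0.20 (edgeR adjusted p = 0.278), and it was -0.04 without library 8 (adjusted p = 0.930), so its sign rests on that library. MYL9 was 3.91 ± 0.25 higher on the log2 scale in U2OS DMSO than in HEK293T DMSO (0.889 to 3.59 CPM). All 8 libraries from 10 to 17 had 0 counts, which allows up to 0.472 to 0.960 CPM each, whereas the HEK293T DMSO libraries 22 to 25 held 3 to 12 counts.

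**Figure D2:**
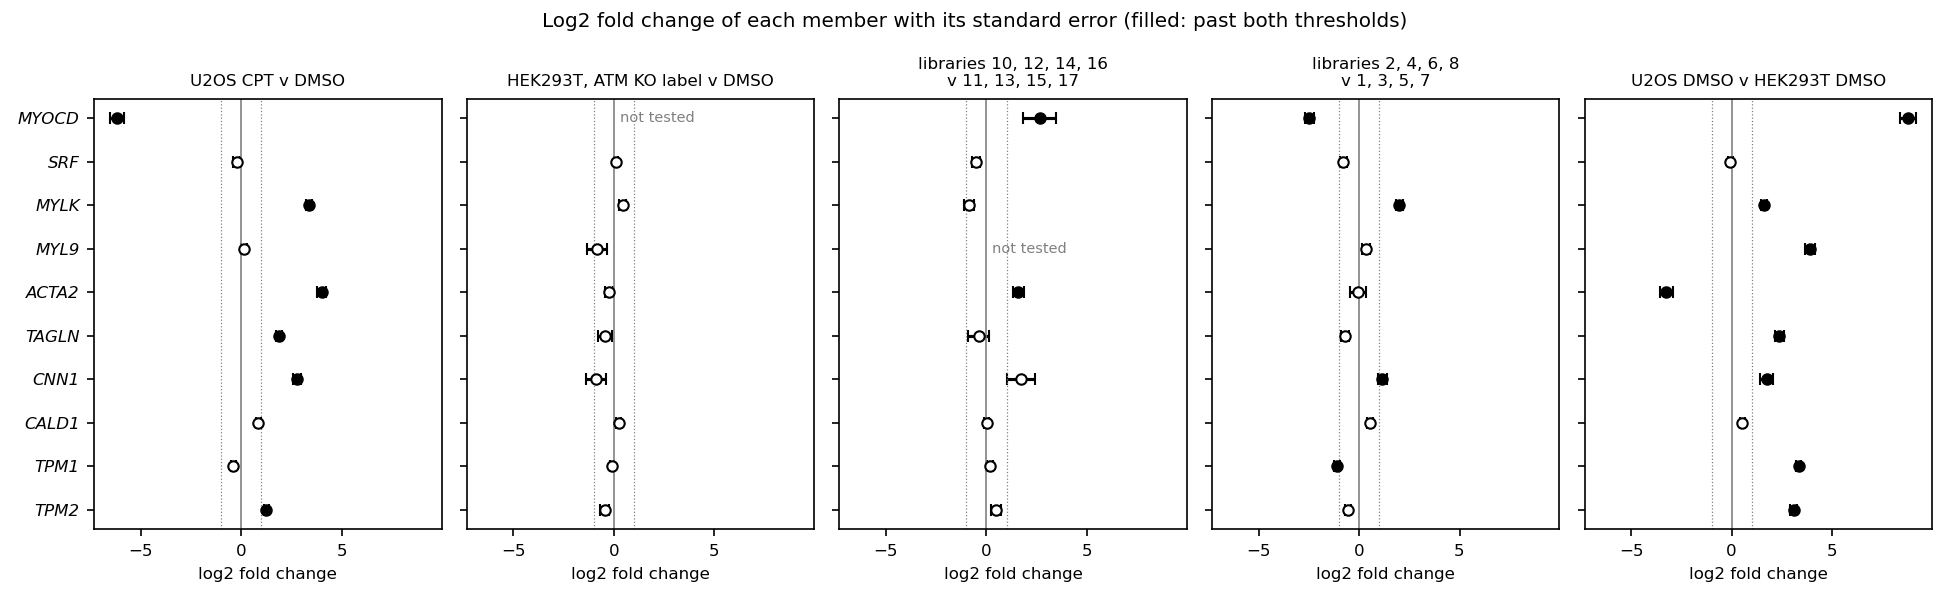
Log2 fold change (horizontal axis) of the 10 genes in 5 comparisons of 4 against 4 libraries, with the standard error as bars. Filled points passed both thresholds, open points did not, dotted lines mark 1 log2 unit, and MYOCD and MYL9 were each below the count filter in 1 comparison.

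ACTA2, smooth-muscle actin, had the largest increase of the 10 genes in U2OS CPT. It was 2.78, 2.75, 2.93 and 0.961 CPM under DMSO (31 counts in all) and 30.9, 34.1, 30.8 and 35.2 CPM after CPT (417 counts). No DMSO library came near a CPT library, the log2 fold change was 4.00 ± 0.22, and the ratio by counts was 14.5 (counting interval 10.1 to 21.6). HEK293T DMSO held 18.2, 15.99, 40.8 and 26.1 CPM, and ACTA2 was the 1 gene of the 10 past both thresholds downwards in U2OS DMSO (-3.24 ± 0.31). Libraries 2, 4, 6 and 8 (0.811 to 6.53 CPM) and libraries 1, 3, 5 and 7 (1.73 to 5.48 CPM) overlapped, with a difference of -0.05 ± 0.39 and a 95% interval of -0.84 to 0.74. Library 8 held 38 of the 59 counts of its set, and without it the difference was -0.71 (edgeR adjusted p = 0.307).

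ACTA2 was also called among the HEK293T-like libraries. Libraries 10, 12, 14 and 16 held 37.4, 46.6, 37.7 and 81.1 CPM, and libraries 11, 13, 15 and 17 held 11.96, 13.03, 33.3 and 10.4 CPM. The sets did not overlap, although library 15 came close to the lower end of the other set. The difference was 1.58 ± 0.27 (edgeR adjusted p = 9.90e-05), 1.41 without library 17, and 1.62 with an adjusted p of 0.0833 when the 4 libraries labelled U2OS WT were the controls. The 5′ end of ACTA2 adjoins FAS, a gene of the other strand and a death receptor, which in U2OS ran from 9.61 to 15.1 CPM under DMSO and from 63.3 to 92.1 CPM after CPT (log2 fold change 2.76 ± 0.16). The antisense gene ACTA2-AS1 at the 3′ end had at most 1 count in any library.

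TAGLN, the actin-binding protein transgelin, was 18.8, 18.9, 17.3 and 13.5 CPM in U2OS DMSO and 52.7, 44.4, 62.3 and 61.8 CPM in U2OS CPT. Every CPT library was higher, by 1.87 ± 0.15 on the log2 scale. TAGLN stood at 15.4, 7.22, 13.02 and 22.2 CPM in libraries 2, 4, 6 and 8, against 21.2, 23.4, 26.8 and 23.4 CPM in libraries 1, 3, 5 and 7, so the order was the opposite of that in CPT. Library 8 lay within the range of the latter, and the difference of -0.71 ± 0.21 (edgeR adjusted p = 0.0128) was not called but became -1.03 without library 8 (adjusted p = 1.94e-04). TAGLN was 2.37 ± 0.22 higher in U2OS DMSO than in HEK293T DMSO (2.76 to 5.14 CPM).

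CNN1, calponin, which binds actin and restrains myosin, was higher in the same comparisons as MYLK. It was 5.87, 6.54, 4.69 and 6.01 CPM in U2OS DMSO and 35.6, 37.8, 29.1 and 38.1 CPM in U2OS CPT, a log2 fold change of 2.77 ± 0.18 with no overlap. It was 9.17, 12.1, 10.1 and 14.5 CPM in libraries 1, 3, 5 and 7 and 23.5, 16.8, 19.8 and 43.5 CPM in libraries 2, 4, 6 and 8. Those sets did not overlap either, with a difference of 1.15 ± 0.22 (edgeR adjusted p = 1.06e-04), and library 8 held the highest value. Without library 8 the difference was 0.75 (adjusted p = 0.00824), under the threshold of 1, and with libraries 3, 5, 7 and 17 as controls it was 1.51 with an adjusted p of 0.378. CNN1 had 0.603 to 1.37 CPM in libraries 18 to 21 and 1.43 to 3.29 CPM in HEK293T DMSO, which do not overlap but rest on 2 to 11 counts per library (-0.90 ± 0.49, adjusted p = 0.905). Libraries 10, 12, 14 and 16 together held 20 counts, of which 15 were in library 16, and libraries 11, 13, 15 and 17 held 7. The difference was 1.71 ± 0.69 (adjusted p = 0.0593), and 1.96 (0.0343) without library 10 or 1.95 (0.0364) without library 14, which is past both thresholds, as it was with no filter (1.70, 0.0435) and with all libraries in one fit (1.73, 0.0248). With the 4 libraries labelled U2OS WT as controls it turned to -0.84.

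CALD1, caldesmon, an actin- and myosin-binding regulator, was abundant in every library and was called in no comparison. Its U2OS values were 351, 323, 370 and 478 CPM under DMSO and 614, 600, 673 and 549 CPM after CPT, without overlap and with a log2 fold change of 0.84 ± 0.13, under the threshold of 1, which it reached without library 33 (1.0045). CALD1 was 356, 354, 368 and 672 CPM in libraries 2, 4, 6 and 8, against 210 to 382 CPM in libraries 1, 3, 5 and 7 (0.54 ± 0.16, edgeR adjusted p = 0.0192), and 0.29 (adjusted p = 0.174) without library 8. U2OS DMSO exceeded HEK293T DMSO (253 to 390 CPM) by 0.53 ± 0.13, with overlapping ranges. In libraries 10, 12, 14 and 16 the difference was 0.01 ± 0.14 (95% interval -0.27 to 0.30).

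The tropomyosins, which lie along actin filaments and gate the access of myosin, moved apart in U2OS CPT. TPM1 was 484, 332, 381 and 398 CPM under DMSO and 292, 243, 285 and 260 CPM after CPT, lower in each CPT library than in each DMSO library, with a log2 fold change of -0.39 ± 0.11. TPM2 was 126, 99.1, 122 and 117 CPM under DMSO and 313, 235, 216 and 220 CPM after CPT, higher in each CPT library, by 1.25 ± 0.13. TPM1 stood at 273, 229, 299 and 394 CPM in libraries 2, 4, 6 and 8, all below the 511, 588, 635 and 720 CPM of libraries 1, 3, 5 and 7, and it was called lower (-1.08 ± 0.15, edgeR adjusted p = 4.27e-07). TPM1 differed by -1.13 without library 1, by -1.21 without library 8, and by -0.74 (adjusted p = 0.612) against libraries 3, 5, 7 and 17. TPM2 differed by -0.55 ± 0.15 there (adjusted p = 0.00961) and was not called, and library 8, at 132 CPM, lay within the 113 to 154 CPM of libraries 1, 3, 5 and 7. Without library 8 it differed by -0.76 (adjusted p = 5.56e-05).

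Both tropomyosins were far higher in U2OS DMSO than in HEK293T DMSO. TPM1 had 43.3 to 48.8 CPM in HEK293T DMSO, and the log2 fold change was 3.35 ± 0.12. TPM2 had 8.89 to 22.1 CPM in HEK293T DMSO, and the log2 fold change was 3.09 ± 0.16. TPM1 had 39.6 to 42.5 CPM in libraries 18 to 21, just below the range of HEK293T DMSO, by -0.09 ± 0.11 (edgeR adjusted p = 0.970).

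**Figure D3:**
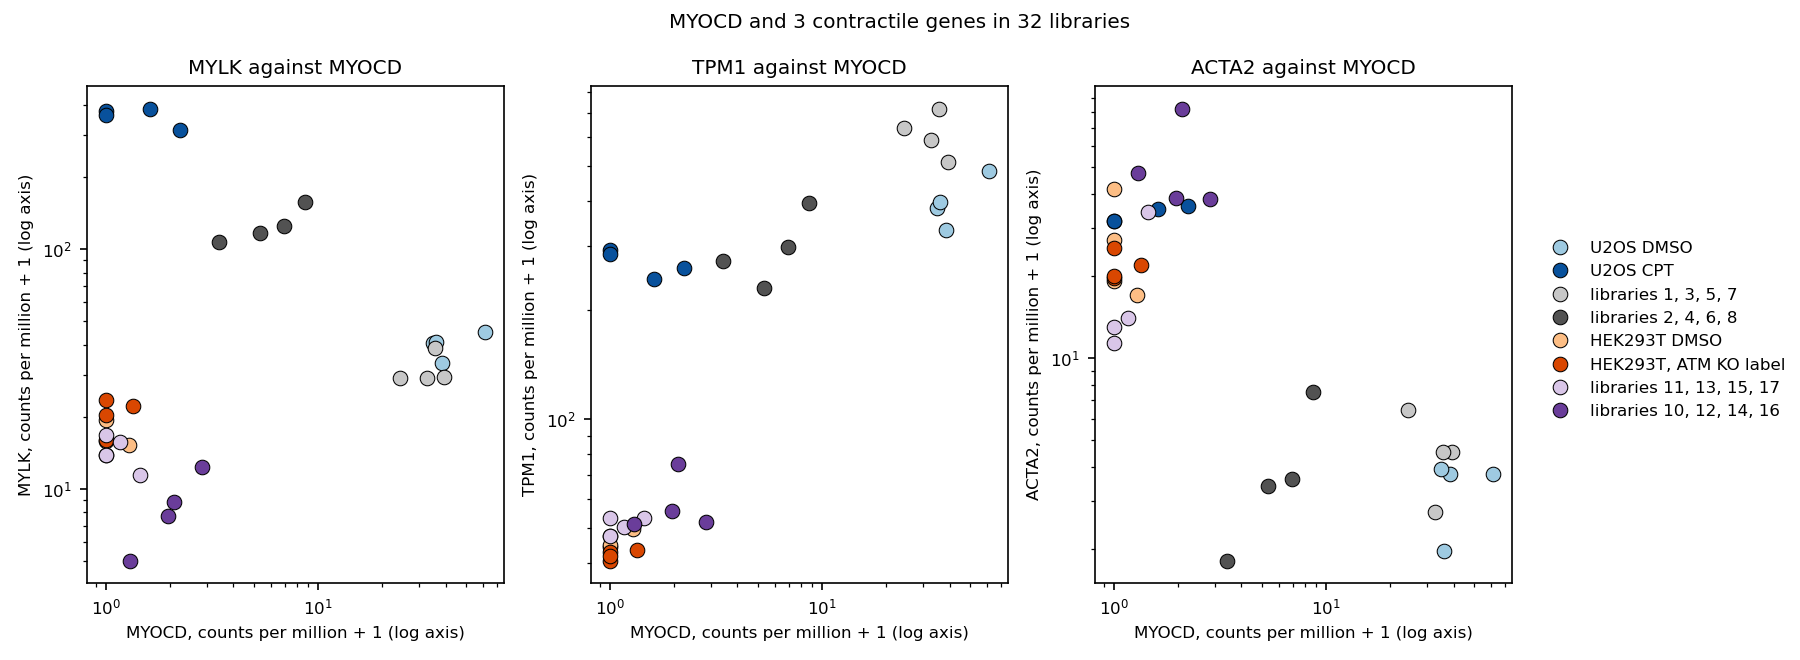
MYLK, TPM1 and ACTA2 (vertical axes) against MYOCD (horizontal axes), all in CPM plus 1 on log axes, in 32 libraries, 1 point each, coloured by set. Libraries of U2OS CPT combine 0 to 1.25 CPM of MYOCD with 315 to 386 CPM of MYLK, libraries 2, 4, 6 and 8 lie between them and the U2OS DMSO libraries in MYOCD and MYLK, and ACTA2 is highest where MYOCD is low.

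Across the 32 libraries, the contractile genes ranged from like to opposite in pattern to MYOCD. The Pearson correlation with MYOCD on the log2 CPM scale was 0.82 for TPM1 (rank 160 of 13611 genes), 0.64 for MYL9, 0.60 for TPM2, 0.50 for TAGLN, 0.43 for CNN1, 0.16 for MYLK, 0.01 for CALD1, -0.40 for SRF and -0.77 for ACTA2. The 5 genes most like MYOCD were RASSF2 (0.97), NTRK3 (0.95), RNF43 (0.95), IGSF10 (0.94) and MN1 (0.94). RASSF2 averaged 39.7 CPM in U2OS DMSO, 7.38 CPM in U2OS CPT and 8.22 CPM in HEK293T DMSO, and NTRK3, a neurotrophin receptor gene, averaged 21.1, 1.54 and 0.560 CPM. MYOCD was at or near 0 in every HEK293T-like set, so the correlations also carry the difference between the cell lines. In U2OS CPT, where MYOCD was close to absent, TPM2, TAGLN, CNN1, MYLK, ACTA2 and CALD1 were higher than under DMSO. TPM1 was lower there, and the ranges of MYL9 and SRF overlapped. Libraries of a set are alike in profile, so the 32 points are not independent, and the correlations are a description.

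The order of the sets differed from gene to gene. MYOCD was highest in U2OS DMSO and libraries 1, 3, 5 and 7, whose ranges overlapped, then in libraries 2, 4, 6 and 8, apart from both neighbours, and then in 5 sets at 1.05 CPM or less on average, where the range of each overlapped that of the next in order. MYLK ran from U2OS CPT through libraries 2, 4, 6 and 8, each apart from the next, to U2OS DMSO and libraries 1, 3, 5 and 7, which overlapped. For ACTA2 the order began with libraries 10, 12, 14 and 16, and the 3 sets of least ACTA2 were U2OS DMSO, libraries 2, 4, 6 and 8 and libraries 1, 3, 5 and 7, whose ranges overlapped.

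Other genes of the pathway were described from 7 lists. Among 22 further genes of smooth-muscle differentiation, 18 were tested in U2OS CPT, of which 2 were called higher and 2 lower (median log2 fold change 0.20), beside 7.97% and 5.50% of all genes tested. NEXN, nexilin, an actin-binding protein of muscle Z-discs, went from 172 ± 29.1 to 427 ± 29.1 CPM (SD, n = 4), by 1.47 ± 0.13. Also called were JPH2 and ITGA8, which were named after their values were seen and lie outside the naming rule for their low level. ITGA8 had 0 counts after CPT and 7 under DMSO. It was tested through the DMSO set alone, and nothing is read from its call. None of the 16 tested in libraries 2, 4, 6 and 8 was called, beside 2.80% of all genes called higher and 2.44% lower. Among libraries 10, 12, 14 and 16, 3 of 18 were higher, SYNPO2 and MYH11 among them, and PPP1R14A was lower (-1.04 ± 0.19), beside 9.52% and 4.45% of all genes. MYH11 had 10 counts there and 2 in libraries 11, 13, 15 and 17, where it reached at most 0.169 CPM. The set in which MYH11 is higher carried it past the filter, and nothing is read from its call. SYNPO2 and MYH11 were named after their values were seen, and PPP1R14A lost its call without library 12 or 15, with DESeq2 (-0.997), RLE size factors (-0.997) or filterByExpr (-0.97), and against the libraries labelled U2OS WT (-0.68, edgeR adjusted p = 0.585). Some genes of this list were at or near 0 in all 32 libraries: MYH11, the smooth-muscle myosin heavy chain, had 22 counts in total, ACTG2, enteric actin, had 13, and DES, desmin, had 7. Others were well detected, with up to 63.6 CPM of SMTN, 53.7 CPM of CSRP1 and 17.8 CPM of LMOD1. The summed level of the 22 genes ran from 341 to 409 CPM in U2OS DMSO and from 616 to 662 CPM in U2OS CPT, and the increase of NEXN makes up most of that difference. It ran from 272 to 380 CPM in libraries 1, 3, 5 and 7 and from 272 to 467 CPM in libraries 2, 4, 6 and 8.

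Among regulators that join or modulate SRF, 5 of 15 were called higher in U2OS DMSO than in HEK293T DMSO and 4 lower, beside 21.8% and 18.1% of all genes. ELK3, a ternary complex factor, averaged 80.0 CPM in U2OS DMSO and 21.2 CPM in HEK293T DMSO (2.13 ± 0.13, edgeR adjusted p = 4.80e-16), and MEF2C, a muscle transcription factor, 0.465 and 18.8 CPM (-5.10 ± 0.36, adjusted p = 2.11e-14). In U2OS CPT, 1 of 13 tested was called higher, beside 7.97%, and none lower. It was FHL2, a LIM-domain cofactor, which went from 35.9 ± 2.99 to 195 ± 12.8 CPM (2.61 ± 0.12). MRTFA and MRTFB, the actin-sensing cofactors related to myocardin, averaged 14.2 and 33.8 CPM in U2OS DMSO and 15.7 and 23.5 CPM in U2OS CPT, and neither was called. The 1 call among 13 in libraries 2, 4, 6 and 8, beside 2.44% of all genes called lower, was MRTFA, at 5.55 ± 3.29 CPM against 12.8 ± 2.60 CPM (-1.10 ± 0.27, edgeR adjusted p = 0.00285), and it was lost without library 6 (-0.89) and was -1.72 without library 8 (adjusted p = 6.59e-06). Against libraries 3, 5, 7 and 17 it was -0.92 (adjusted p = 0.332). In libraries 10, 12, 14 and 16, 3 of 15 were higher, beside 9.52%: GATA6 (1.44 ± 0.24), KLF5 (1.06 ± 0.14, lost without library 10 or 13) and KLF4, which was named after its value was seen. Neither GATA6 (1.68, edgeR adjusted p = 0.0535) nor KLF5 (0.94, 0.0401) was called against the libraries labelled U2OS WT.

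Cytoskeletal genes known as targets of SRF and its MRTF cofactors were mostly not called outside the comparison of the lines. In U2OS CPT 2 of 25 were called higher, close to the 7.97% of all genes, and none lower, namely ANKRD1, a muscle ankyrin repeat protein, from 304 ± 52.8 to 1268 ± 139 CPM (2.22 ± 0.14), and CCN1, a matrix protein, from 290 ± 91.5 to 597 ± 37.0 CPM (1.23 ± 0.14). Of the same 25 genes, 4 were lower in libraries 2, 4, 6 and 8, beside 2.44% of all genes, and none higher, with a median of -0.41 against 0.04 over all genes: THBS1 (-1.37 ± 0.18), CCN1 (-1.18 ± 0.19), MYH9, nonmuscle myosin (-1.09 ± 0.15), and FLNA, filamin (-1.01 ± 0.16), with edgeR adjusted p of 8.92e-08, 3.08e-06, 1.63e-07 and 3.35e-06. FLNA lost its call without library 2 or 5. Without library 8 the 4 values were -1.17, -0.99, -1.15 and -1.05 in the same order, so that CCN1 lost its call. None of the 4 was called against libraries 3, 5, 7 and 17 (-0.81, -0.63, -0.84 and -0.63, with adjusted p from 0.387 to 0.754). Higher in libraries 10, 12, 14 and 16 were 3 of 25, near the 9.52% of all genes, namely ANKRD1 at 22.7 ± 8.58 CPM against 0.935 CPM (4.60 ± 0.34, adjusted p = 7.06e-10), CCN1 (1.18 ± 0.24, lost without library 10) and CCN2, which was named after its value was seen. ANKRD1 turned to -1.67 and CCN1 to -2.77 against the libraries labelled U2OS WT, with adjusted p of 0.570 and 0.247. Between the lines, 14 of 25 were higher in U2OS DMSO, beside 21.8% of all genes, and none in HEK293T DMSO.

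Immediate early genes that SRF serves with ternary complex factors also differed by comparison. Of 8 genes, 7 were tested in U2OS CPT, where 2 were called lower, beside 5.50% of all genes, JUNB (22.4 ± 8.52 to 9.57 ± 2.33 CPM, -1.01 ± 0.22) and FOS (named after its value was seen). JUNB lost its call when library 28, 29, 30 or 31 was left out. Called lower were 3 of 8 in libraries 2, 4, 6 and 8, beside 2.44%, EGR1 (80.5 ± 12.5 to 34.3 ± 3.57 CPM, -1.28 ± 0.17, edgeR adjusted p = 4.88e-08), JUNB (-1.04 ± 0.23) and EGR2, named after its value was seen. JUNB did not hold there without library 2, 6 or 8, and EGR1 was -1.17 without library 8. With libraries 3, 5, 7 and 17 as controls neither EGR1 (-0.80, adjusted p = 0.636) nor JUNB (-0.61, 0.598) was called. In libraries 10, 12, 14 and 16, 6 of 8 were higher, beside 9.52%, with a median of 2.62: EGR1 stood at 23.1 ± 3.06 CPM against 3.51 ± 1.28 CPM (2.66 ± 0.23, adjusted p = 6.39e-09) and JUNB at 26.7 ± 6.26 CPM against 4.38 ± 1.36 CPM (2.58 ± 0.23, adjusted p = 9.41e-09). IER2 was higher in the same comparison by 1.16 ± 0.16 (edgeR adjusted p = 8.72e-06). With the libraries labelled U2OS WT as controls EGR1 turned to -0.16 (adjusted p = 0.956) and JUNB was 1.78 (0.103), and neither was called. IER2 kept its call against these controls, at 1.02 (adjusted p = 0.0485), close to both thresholds.

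None of the 12 tested genes of the myosin light chain switch (kinases, phosphatase subunits and calmodulins around MYLK) was called in U2OS CPT, beside 7.97% of all genes higher and 5.50% lower, and their median was -0.31 against 0.0079 over all genes. Among 16 ligands, receptors and targets of TGF-beta, PDGF and Notch, which regulate smooth-muscle genes, 3 were called higher and 2 lower in U2OS CPT, beside 7.97% and 5.50% of all genes. TGFB2, a TGF-beta ligand, went from 202 ± 28.8 to 487 ± 80.3 CPM (1.45 ± 0.12). PDGFB, a growth factor that represses smooth-muscle genes, went from 44.0 ± 18.2 to 8.86 ± 2.20 CPM (-2.10 ± 0.23), and TGFB3 from 11.6 ± 1.12 to 4.09 ± 0.46 CPM (-1.32 ± 0.23). PDGFB was also lower in libraries 2, 4, 6 and 8 (-1.57 ± 0.22, edgeR adjusted p = 2.81e-07), as was the Notch ligand JAG1 (-1.99 ± 0.20, adjusted p = 1.06e-11), whereas JAG1 was called higher in U2OS CPT (1.21 ± 0.15), a value named after it was seen. Without library 8 the differences were -1.26 for PDGFB and -1.86 for JAG1, and against libraries 3, 5, 7 and 17 they were -0.99 (adjusted p = 0.593) and -1.52 (0.252), which were not called. SMAD7, an inhibitor of TGF-beta signalling, was higher in libraries 10, 12, 14 and 16 (1.18 ± 0.19, adjusted p = 5.22e-05), as was PDGFRA, named after its value was seen. SMAD7 was 0.84 (adjusted p = 0.208) against the libraries labelled U2OS WT. In libraries 18 to 21 no gene of any of the 7 lists was called.

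Markers of skeletal and cardiac muscle were used to see whether other muscle genes moved with these. Of 14 such genes, MYOG, MYF5 and MYH7 had 0 counts in every library, and the summed level ran from 117 to 141 CPM in U2OS DMSO and from 73.4 to 84.4 CPM in U2OS CPT. It ran from 133 to 208 CPM in libraries 1, 3, 5 and 7 and from 146 to 268 CPM in libraries 2, 4, 6 and 8, where library 8 was highest. TNNT1, slow skeletal troponin T, made up most of the sum in U2OS, with 114 CPM on average under DMSO and 62.4 CPM after CPT, and was not called. Of the 7 genes tested in U2OS CPT, 2 were called higher, beside 7.97% of all genes, and none lower. They were TNNT2 and MYH2, named like TNNT1 after their values were seen. MYH2 had 0 counts under DMSO and was tested through the CPT set, so nothing is read from its call. TNNT2, cardiac troponin T, was called higher in libraries 2, 4, 6 and 8 (9.23 ± 1.11 to 40.4 ± 14.9 CPM, 2.08 ± 0.21, edgeR adjusted p = 2.87e-11, and 1.85 without library 8), and not against libraries 3, 5, 7 and 17 (2.52, adjusted p = 0.221). The part of these genes in the results above was not tested.

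**Figure D4:**
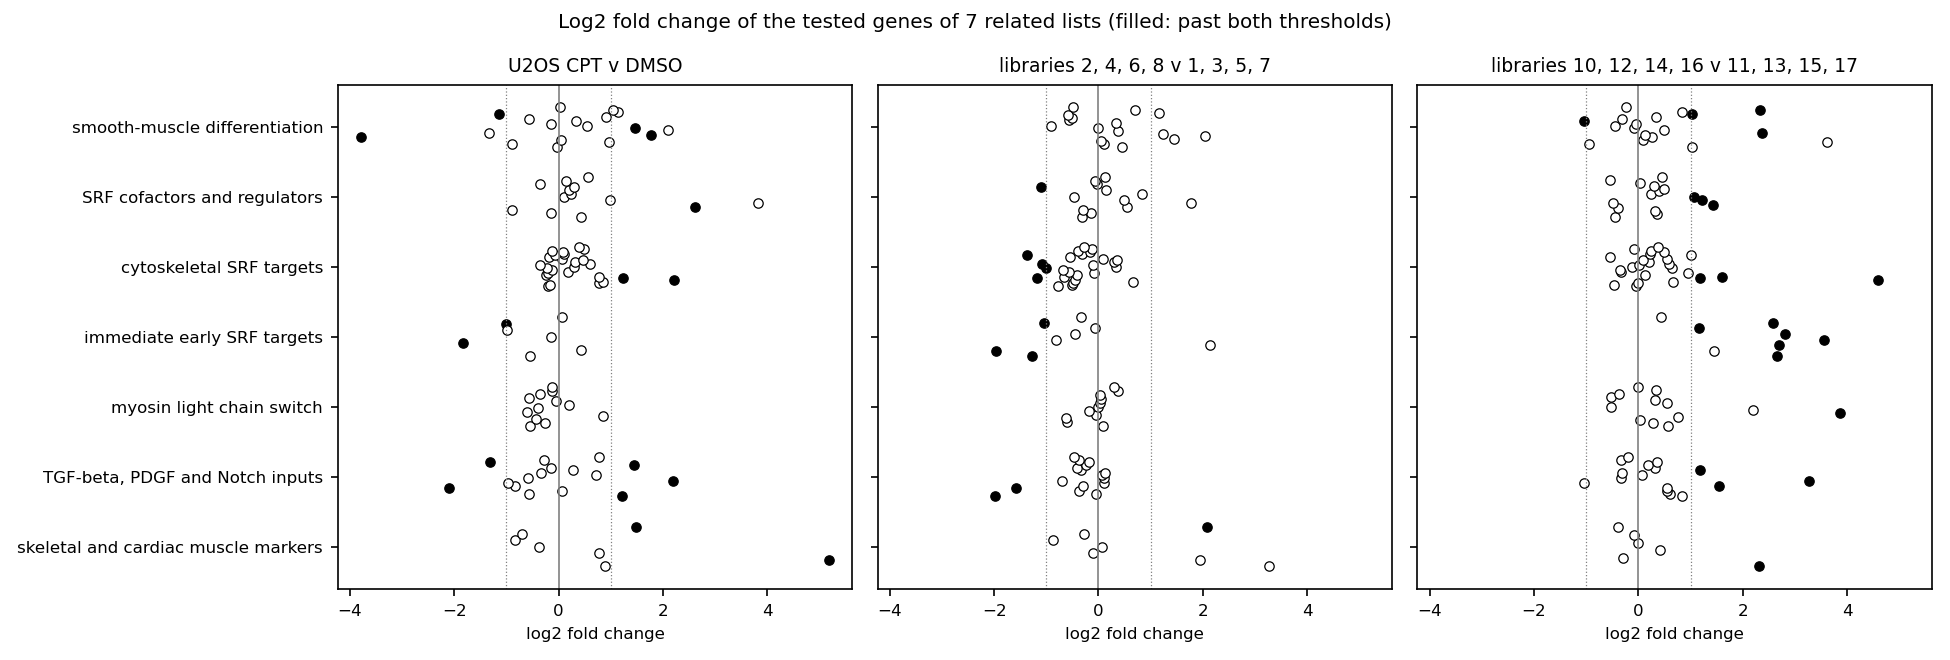
Log2 fold change (horizontal axis) of every tested gene of 7 related gene lists (rows) in 3 comparisons of 4 against 4 libraries. Filled points passed both thresholds and dotted lines mark 1 log2 unit. The median of the immediate early genes is -0.54 in U2OS CPT, -0.63 in libraries 2, 4, 6 and 8 and 2.62 in libraries 10, 12, 14 and 16.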

How the data were processed

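The deposited values are raw counts for each gene in 32 libraries, which the authors obtained with Lexogen's forward UMI pipeline for QuantSeq and did not normalize. The aligner settings, genome build, annotation and strand setting are not given in the sources used here. Of the table, 5 summary rows (reads on no feature were 9.39% to 39.9% per library) and 92 spike-in rows were left out. Symbols were found for 56104 of the 60107 identifiers, positions are from GENCODE 29 (GRCh38) and promoters from RefSeq (GRCh38.p14). Sets of libraries follow the numbers in the titles, and the labels are named where they differ from the profile.

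A gene was tested where 2 or more libraries of a comparison had over 1 count. A gene could therefore be tested through the set in which it is high, as MYH2 was in U2OS CPT, with 0 counts under DMSO. Libraries were scaled by TMM and compared, 4 against 4, by the quasi-likelihood test of edgeR (version 4.0.16, under R 4.3.3). The procedure was tested on simulated data. Promoter searches, CPM and correlations (log2 CPM with a prior count of 2) were computed in Python 3.11.15. Alternatives were DESeq2 1.42.0, the likelihood ratio test of edgeR, filterByExpr or no filter, RLE size factors, 1 fit of all libraries, no cutoff on fold change, controls by label, each library left out, and plain library totals, which was chosen after seeing the data. Intervals on ratios of counts are exact binomial intervals and cover counting error only.

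The members, gene lists and tests were chosen with earlier results of these data known. The text names all members, up to 4 called genes for each list and comparison with the largest change among those over 3 on the average log2 CPM scale, and the 5 genes most like MYOCD among those over 1 on that scale. Some called genes of the lists are counted but not reported here by name.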

Additional observations from a re-analysis of the deposited data

Results flagged for a closer look

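In 9 of 80 combinations of a gene and a set of 4 libraries, 1 library lay far from the other 3 by the size of its gap to the nearest of them. For normally distributed values such a gap arises in about 5% of groups. A set with a single count in 1 library is always flagged, and a set at 0 counts never is. The 9 of 80 are therefore not compared with that share. MYOCD was high in library 30 among the U2OS DMSO libraries (60.2 CPM), and its single counts set library 21 (0.343 CPM) and library 23 (0.286 CPM) apart in HEK293T. MYLK was high in library 7 (37.6 CPM). ACTA2 was high in library 15 (33.3 CPM) and low in library 33 (0.961 CPM). TPM2 and CALD1 were high in library 8 (132 and 672 CPM), and CALD1 was high in library 11 (307 CPM).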

How the results depend on the processing

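No paired analysis was run, because the labels give the groups compared no shared replicate numbers. Neighbouring numbers, such as 7 and 8, may mark repeats made together, which the labels do not state. Library 7 was, like library 8, the highest of its set for MYLK, MYL9, CNN1, CALD1, TPM1 and TPM2. Leaving out library 8 alone would unbalance such pairs, and pairing was not tested. In U2OS CPT the 2569 genes called became 1652 with filterByExpr and 6091 with no cutoff on fold change, and 2411 to 2550 with a library left out. The HEK293T libraries 18 to 21 had 0 called genes, 2 with the likelihood ratio test, 1 with plain library totals, 2 with no filter, 1 with all libraries in one fit, 1 with no cutoff, and 0 to 14 with a library left out (14 without library 21). Against all 8 libraries labelled HEK293T DMSO 0 genes were called. There MYLK turned from 0.44 to -0.23 and ACTA2 from -0.24 to 0.45. TAGLN, CNN1, MYL9, TPM1 and TPM2 lay between -2.25 and -3.29, and libraries 3, 5 and 7 of those controls are U2OS-like. Libraries 10, 12, 14 and 16 gave 2718 calls, 1461 with filterByExpr, 6785 with no cutoff, 631 with controls by label, and 2360 to 2599 with a library left out. Libraries 2, 4, 6 and 8 gave 974 calls, 644, 2415 and 39 under the same 3 settings, and 771 to 1053 with a library left out. Their controls by label mix the U2OS-like libraries 3, 5 and 7 with library 17, which is HEK293T-like. Between the lines, 7872 calls became 5090 with filterByExpr, 12256 with no cutoff, and 7518 to 7735 with a library left out. filterByExpr tests fewer genes and the removed cutoff asks less. With controls by label, differences of libraries 10, 12, 14 and 16 turned negative for MYOCD (-3.17), CNN1 (-0.84), TPM1 (-1.76), TPM2 (-2.63), CALD1 (-0.02), ANKRD1 (-1.67), CCN1 (-2.77) and EGR1 (-0.16), and library 1, which is U2OS-like, is among those controls. Plain library totals, chosen after seeing the data, moved the median over all genes to -0.16 in U2OS CPT and -0.21 between the lines, and the share of calls that were higher from 59.2% to 44.9% and from 54.6% to 45.0%. Depth limits MYOCD in every HEK293T-like library, and MYL9, CNN1 and TAGLN there.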
